A study of Mus musculus with 6 samples.

Results

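Cytosolic ribosomal proteins are the protein subunits of the ribosome that translates nuclear-encoded mRNAs, and the mRNAs that encode them were compared between *Hnrnpa2b1* knockout (KO) and wild type (WT) C2C12 cells. Genes were taken by symbol, as names that begin with Rpl or Rps and a digit, together with *Rplp0*, *Rplp1*, *Rplp2* and *Rpsa*, leaving out pseudogenes marked -ps and the Rps6k kinases. Of 46078 genes in the count table, 92 had such a name and 84 of these had at least 100 counts in every library. The 84 genes comprised 49 of the large subunit and 35 of the small subunit. The rule reads names only, so it includes *Rps19bp1*, which encodes a protein that binds *Rps19* and is not a subunit. It also includes 4 paralogues, *Rps27l* and *Rpl36al*, whose names end in l, and *Rpl22l1* and *Rpl7l1*, whose names end in l1, and 3 loci named as further copies of another gene (*Rps3a2*, *Rps3a3* and *Rpl37rt*). Without these 8 genes, 76 remain.

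C2C12 cells are an immortalized mouse myoblast line whose cells stop dividing and fuse into myotubes when serum is withdrawn. The KO cells carried a CRISPR-Cas9 disruption of *Hnrnpa2b1*, an RNA-binding protein of the hnRNP family, after puromycin selection of transfected cells. The study checked the KO clones for the protein by immunofluorescence and Western blot. The methods describe 3 independent clones of each genotype without stating which clone gave which library, or what the WT clones received. A Western blot in the study sets KO against myoblasts given a scrambled guide sequence. RNA was taken after 2 days of differentiation, described in the labels as withdrawal of serum with ITS supplement (the study's general culture methods name horse serum in the differentiation medium), in 3 libraries of hnrnpa2b1 KO cells (KO1 to KO3) and 3 of WT cells (WT1 to WT3), from total RNA depleted of ribosomal RNA. The labels do not say whether libraries of 1 genotype came from separate cultures, so p-values measure the spread between these libraries, which may be partly technical.

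Between 33605258 and 40558740 reads were counted on genes per library. The targeted mRNA is not a strong check of the labels here, since *Hnrnpa2b1* (ENSMUSG00000004980, chr6:51460434-51469894 on GRCm38) had 159, 195 and 249 CPM in KO and 225, 229 and 252 in WT, given here and throughout in the order of libraries 1 to 3 (log2 fold change −0.23, standard error 0.18, edgeR adjusted p = 0.381). CPM are counts divided by library size as adjusted with edgeR's TMM factors, so their sum differs between libraries. TPM are transcript abundances divided by transcript length as well and scaled to a fixed total. All 24 muscle differentiation markers on the list were detected. Markers of other cell types were at or near 0, with *Cd3e*, *Ms4a1*, *Adipoq* and *Rbfox3* at 0.00 TPM in every library, summed immune markers at 1.63 to 4.65, summed endothelial markers at no more than 0.364 and *Pparg* the only adipocyte marker above 0.02. Summed neural markers were higher in KO (4.71 to 12.2 TPM) than in WT (0.849 to 1.49), nearly all of it *Tubb3*, and their part in the results was not tested.

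The ribosome has a small subunit, which decodes mRNA, and a large subunit, which joins amino acids and carries the exit tunnel for the new protein. Apart from the stalk proteins each of them is present in a single copy per ribosome, so cells make these proteins in matched amounts. Their mRNAs are among the most abundant in a dividing cell. Most begin with a C in a run of pyrimidines, the 5′ terminal oligopyrimidine (TOP) motif, through which mTORC1 and the protein *Larp1* govern their translation and stability.

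The following starts are shown because the pyrimidine run is the start feature for which these mRNAs are known, and because paralogues can be set beside the gene they are named after. Each line gives 30 bases of the gene's own strand, 5′ to 3′, from 10 bases before the start annotated by RefSeq on GRCm38.p6 through 20 bases from it. The longest run of C and T that reaches within 10 bases of the start is in capitals, as far as it lies inside the 30 bases.
*Rps10* (chr17:27635225-27635254, minus strand): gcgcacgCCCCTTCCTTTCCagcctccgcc
*Rpl28* (chr7:4792955-4792984, plus strand): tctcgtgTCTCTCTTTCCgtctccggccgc
*Rps26* (chr10:128626487-128626516, minus strand): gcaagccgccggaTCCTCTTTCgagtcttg
*Rps27* (chr3:90213629-90213658, minus strand): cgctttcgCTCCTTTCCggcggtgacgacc
*Rps27l* (chr9:66946076-66946105, plus strand): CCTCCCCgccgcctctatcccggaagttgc
*Rpl22* (chr4:152325716-152325745, plus strand): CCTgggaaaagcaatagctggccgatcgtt
*Rpl22l1* (chr3:28805498-28805527, plus strand): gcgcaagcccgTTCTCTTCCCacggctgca
*Rpl36a* (chrX:134585644-134585673, plus strand): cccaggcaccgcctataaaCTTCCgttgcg
*Rpl36al* (chr12:69184048-69184077, minus strand): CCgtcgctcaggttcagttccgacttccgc
*Rps21* (chr2:180257369-180257398, plus strand): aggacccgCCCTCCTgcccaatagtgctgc
*Rpl7l1* (chr17:46782637-46782666, minus strand): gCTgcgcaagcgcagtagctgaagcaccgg

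The run was 13 bases long in *Rps10*, 11 in *Rpl28*, 10 in *Rpl22l1* and 9 in *Rps26*, *Rps27* and *Rps27l*. It was 7 bases long in *Rps21*, 5 in *Rpl36a* and *Rpl36al*, 4 in *Rpl22* and 2 in *Rpl7l1*. RefSeq windows of 250 bases before to 50 after the start were matched for 62 of the 84 genes. In 27 of the 62 (43.5%) a run of at least 8 pyrimidines lay within 10 bases of the start, against 13.7% of 32851 windows of all genes. The letters CCGGAAG, which the ETS factor GABP can bind, stood on either strand in 38.7% of the 62 and in 8.86% of all windows. The letters CTTTCC, which are themselves a stretch of pyrimidines and so overlap with the run, stood on the sense strand in 35.5% and 14.1%, and on either strand in 46.8% and 26.6%. The letters TATAAA stood on either strand in 9.68% and 13.6%. These matches are descriptions of the windows, and an annotated start can lie some bases from the start that the cells use. The genes without a matched window included *Rpl17*, *Rpl21*, *Rpl23a*, *Rpl29*, *Rpl3*, *Rpl30*, *Rpl32*, *Rpl36*, *Rpl7*, *Rpl8*, *Rplp1*, *Rps14*, *Rps20*, *Rps27a*, *Rps29*, *Rps3a2* and *Rps3a3*.

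Ribosomal protein mRNAs were lower in KO than in WT as a group. The log2 fold change, KO over WT throughout, was negative in 81 of the 84 genes, against 47.7% of all 14828 genes tested. Its median was −0.62, with an interquartile range of −0.69 to −0.51 and extremes of −1.15 and 0.29, where the median of all genes tested was 0.03. At an adjusted p-value under 0.05 in edgeR's quasi-likelihood test, 23 of the 84 fell and 0 rose, where 10.6% of all genes fell and 12.1% rose. At an unadjusted p under 0.05 the number that differed was 66 (39.0% of all genes), and at the adjusted threshold DESeq2 called 53 lower and 0 higher, where it called 11.7% of all genes lower. Every KO library lay below every WT library in 69 of the 84 genes (21.6% of all genes), every KO library lay above in 1 (22.7%), and the genotypes overlapped in 14. The median standard error of a log2 fold change was 0.21, and the smallest change that passed was −0.65.

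The number that passed the threshold depended on single libraries, whereas the direction did not. It was 0 without WT1 (29 at an unadjusted p under 0.05), 4 without WT2, 4 without WT3, 7 without KO3, 23 without KO1 and 54 without KO2. Over all genes, where 3361 differed in either direction, the number was 933, 2100 and 1288 without WT1, WT2 and WT3, and 4712, 2695 and 2088 without KO1, KO2 and KO3. The median log2 fold change stayed between −0.79 and −0.45 over the same 6 exclusions, and 80 genes had a negative value in all 16 fits tried. These fits do not include the removal of a regional median or of a trend with transcript length and level, described below. Removing the trend of all genes took the median to −0.20, and that of the other genes to −0.23. With the trend of all genes removed, further genes were positive, among them *Rpl39* (0.15) and *Rpl37a* (0.12). With total counts scaling 10 of the 84 were called lower. Without the 4 paralogues, the 3 copies and *Rps19bp1*, 19 of the remaining 76 genes fell and the median was −0.62. DESeq2 without WT1 called 12 of the 84 lower and 0 higher.

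**Figure D1:**
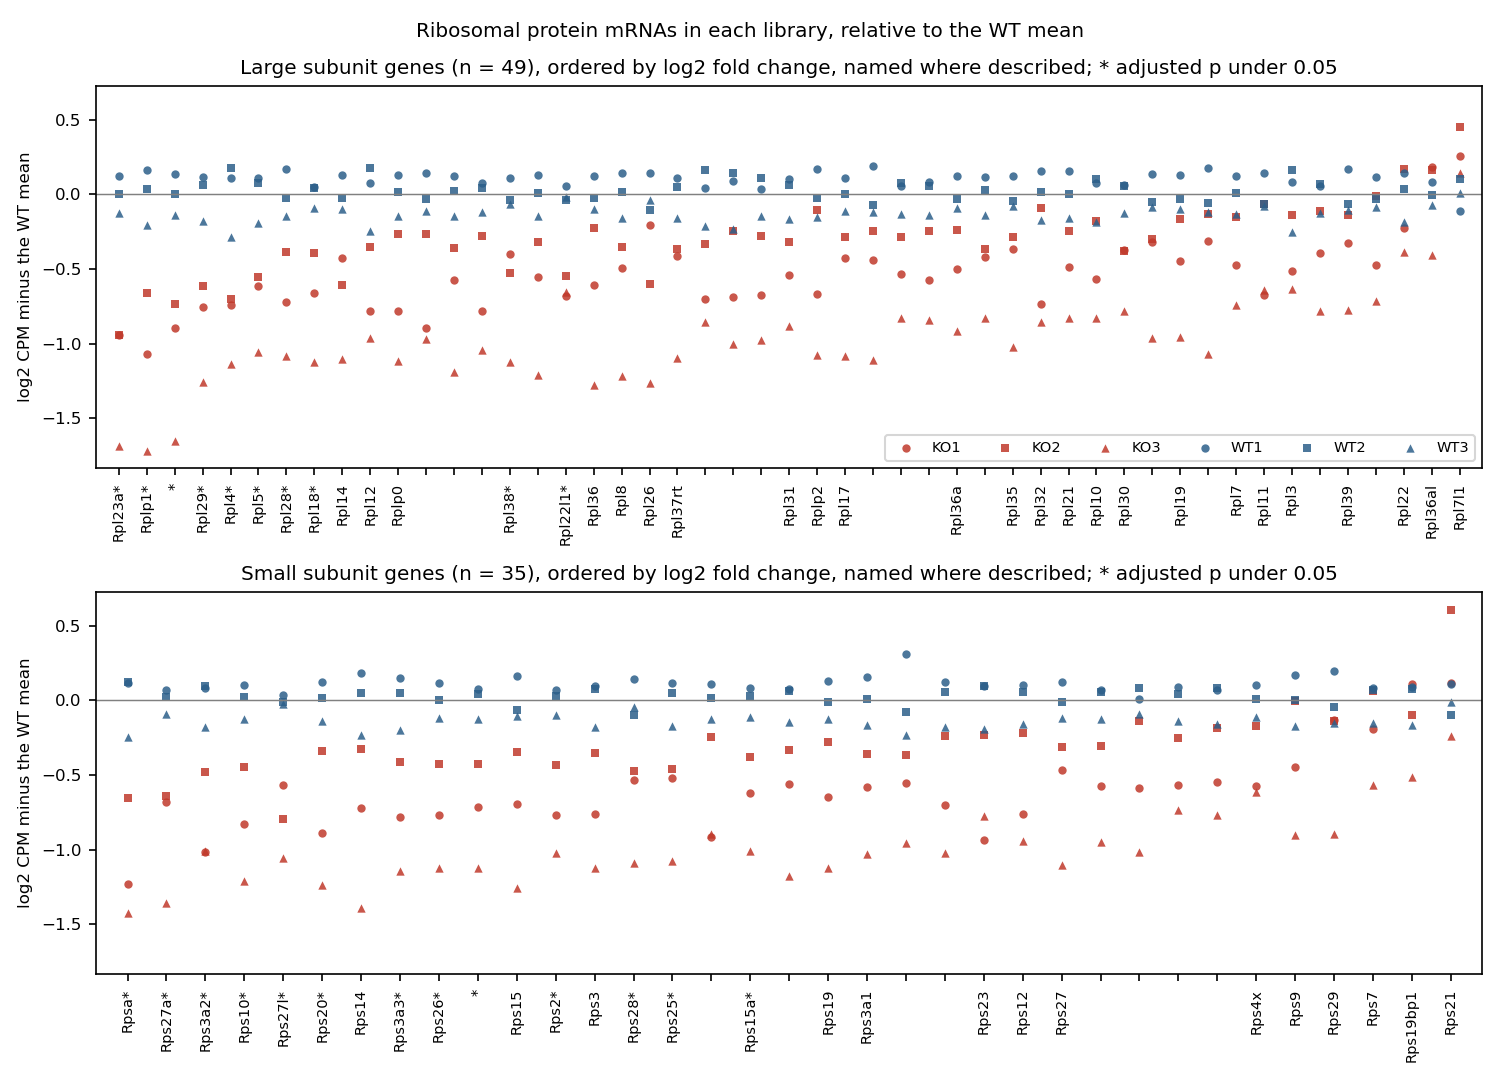
Each column is 1 ribosomal protein gene and each point 1 library (KO red, WT blue, shapes for the libraries), plotted as log2 CPM minus the mean of the WT libraries, for the large subunit above and the small subunit below, with names for genes described in the text. The KO3 triangles are the lowest point for 78 of the 84 genes, and KO2 lies above KO1 and KO1 above KO3 in 71. The genes at the right ends (*Rpl36al*, *Rpl7l1* and *Rps21*) have log2 fold changes of 0.00, 0.29 and 0.20, of which the first and last turned sign in some settings.

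The KO libraries differed from each other more than the WT libraries did. Relative to the WT mean of each gene, the median difference over the 84 genes on the log2 scale was −0.57, −0.30 and −1.02 in the KO libraries, and 0.11, 0.02 and −0.14 in WT1, WT2 and WT3. KO3 was the lowest library for 78 genes and WT1 the highest for 65, and in WT3 83 of the 84 lay below the WT mean. KO2 lay above KO1 and KO1 above KO3 in 71 of the 84 genes. Over all tested genes the same median lay within 0.02 of 0 in every library. The muscle markers did not follow that order: their summed level was 14705, 6641 and 6756 TPM in KO, where WT had 15235, 11399 and 13661. Summed cell cycle markers were 201, 239 and 284 TPM in KO and 146, 155 and 153 in WT. The part of either in the lower ribosomal protein mRNAs was not tested.

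The 84 genes took 3.53%, 4.78% and 2.94% of all counts in KO and 5.77%, 5.58% and 4.77% in WT. KO2 (4.78%) and WT3 (4.77%) were level in this share, and the other KO libraries lay below every WT library. On the TPM scale, in which StringTie corrects for transcript length, the shares were 3.01%, 3.84% and 2.80% in KO and 5.54%, 5.33% and 4.27% in WT, and the genotypes did not overlap. Genes tested by counts held between 55.0% and 76.4% of the TPM of a library, and of their TPM alone the 84 genes took 4.72%, 6.98% and 3.67% in KO and 8.92%, 8.83% and 6.27% in WT, with KO2 above WT3 as in the counts. Over all TPM, the KO mean of the share was 3.22% ± 0.547 (SD, n = 3), and the WT mean was 5.05% ± 0.682 (SD, n = 3), so that KO stood at 0.637 times WT. These are shares of the sequenced RNA, and fewer ribosomal protein mRNAs per cell cannot be told apart from more of other RNAs per cell.

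**Figure D2:**
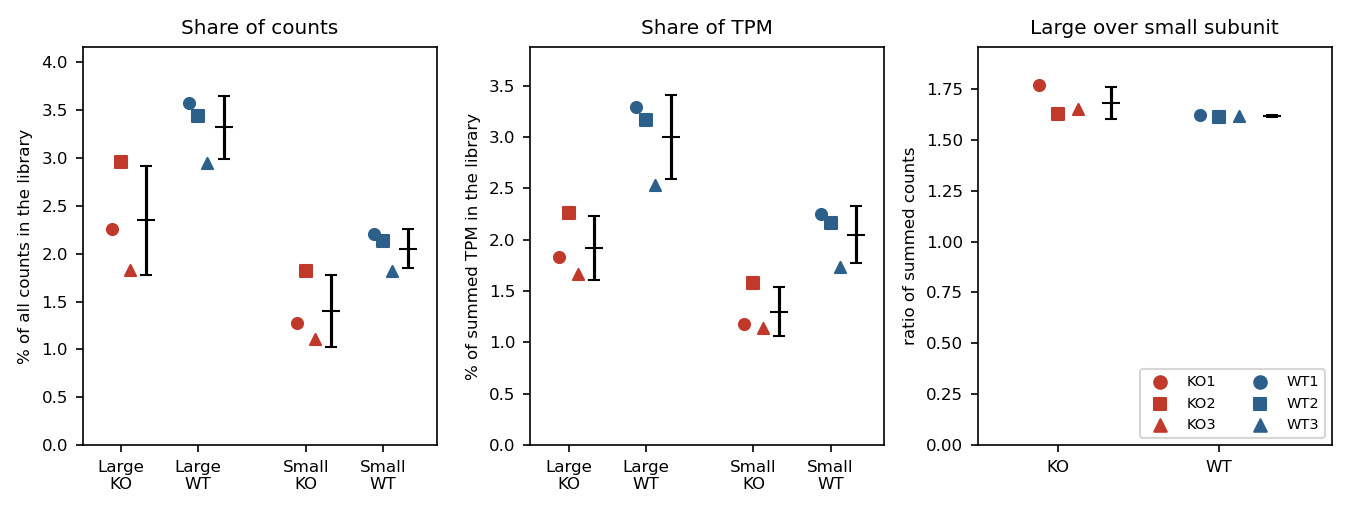
Share of each library's counts (left) and TPM (middle) in large and small subunit genes, and the ratio of summed large to summed small subunit counts (right), with 1 point per library and the mean ± SD (n = 3) as bars. The means of both subunits are lower in KO, while the ratio lies between 1.61 and 1.77 in all 6 libraries. By counts KO2 meets WT3, at 2.96% and 2.94% for the large subunit and 1.82% in both for the small subunit.

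The median change was slightly larger in small than in large subunit mRNAs. Of the 49 large subunit genes 10 passed the threshold (10.6% of all genes fell), with a median log2 fold change of −0.57, and of the 35 small subunit genes 13 passed it, with a median of −0.65. The difference of the 2 medians was 0.08, more than its spread between libraries of 1 genotype (SD 0.019), and it was 0.020 once the median change of the neighbouring genes was subtracted from each gene (as described with the chromosomal positions). The ratio of summed large to summed small subunit counts was 1.77, 1.62 and 1.65 in KO and 1.62, 1.61 and 1.62 in WT, so that KO1 stood furthest from WT. The ratio of summed TPM was 1.56, 1.43 and 1.45 in KO and 1.46 in each WT library, where the genotypes overlapped.

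On the TPM scale the most abundant of these mRNAs were *Rps12* of the small subunit, with a mean over all libraries of 1424 TPM, *Rpl23a* (1247), *Rps26* (1176) and *Rpl17* (1156). In WT the libraries of neighbours in this order overlapped, and in KO every library of *Rps12* (922 to 1419 TPM) lay above every library of *Rpl23a* (646 to 905). The order of the means differed by genotype: in KO, *Rpl23a* had 780 ± 130 TPM (SD, n = 3), below *Rpl17* (923 ± 174), *Rpl19* (893 ± 161) and *Rpl35* (793 ± 137), whereas in WT it had 1715 ± 222 TPM, above all 3. The KO ranges of these 4 genes overlapped, although *Rpl17* lay above *Rpl23a* within each KO library. The least abundant were *Rps19bp1* (15.6 TPM), *Rpl7l1* (27.5 TPM) and *Rpl22l1* (31.9 TPM). Over all 84 genes, paralogues and *Rps19bp1* included, the levels also lay closer together in KO. The SD of log2 TPM was 1.21, 1.28 and 1.24 in KO and 1.33, 1.31 and 1.30 in WT, and the genotypes did not overlap. The low *Rps19bp1* and *Rpl7l1* add to this SD and had log2 fold changes of −0.15 and 0.29. The SD was not computed without them.

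Proteins around the exit tunnel of the large subunit included the gene with the largest fall. *Rpl23a* (ENSMUSG00000058546, chr11:78180932-78183584), which forms a docking site beside the tunnel exit, had 258, 258 and 154 CPM in KO and 538, 496 and 453 in WT. All KO libraries were at or below 258 CPM and no WT library was under 453, and the fall was to 45.0% of WT (log2 fold change −1.15, standard error 0.22, edgeR adjusted p = 0.0114). It passed in 5 of the 6 fits that left out 1 library, failing without WT1 (edgeR adjusted p = 0.0588, where the 15 alternatives ran from 1.47e-06 to that value). Much of its exonic length (62.3%) overlaps with other annotated genes, and 80.0% of its 100-base windows occur in another gene too. How the authors counted reads in such stretches was not tested, so its value is uncertain to that extent. *Rpl4*, which lines the tunnel, had 1207, 1237 and 915 CPM in KO and 2168, 2276 and 1655 in WT (log2 fold change −0.86, standard error 0.22, edgeR adjusted p = 0.0290). Only 5.14% of its windows occur elsewhere. The list holds 8 exit tunnel genes, of which 2 passed where 10.6% of all genes fell. All 8 had every KO library below every WT library (21.6% of all genes). The 6 that did not pass (*Rpl17*, *Rpl19*, *Rpl26*, *Rpl31*, *Rpl35* and *Rpl39*) had log2 fold changes between −0.64 and −0.39.

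The stalk recruits the elongation factors to the large subunit, and its 4 genes on the list had log2 fold changes from −1.09 to −0.57. *Rplp1* (ENSMUSG00000007892, chr9:61913284-61914538), one of the acidic stalk proteins, had 278, 369 and 177 CPM in KO and 654, 598 and 506 in WT, without overlap (log2 fold change −1.09, standard error 0.27, edgeR adjusted p = 0.0251). Its partner *Rplp2* had 281, 416 and 212 CPM in KO and 504, 440 and 403 in WT, where KO2 overlapped with WT3 and the value of −0.57 did not pass (edgeR adjusted p = 0.132). Every KO library lay below every WT library (21.6% of all genes) in *Rplp0*, the base of the stalk, and in *Rpl12*. These genes had −0.68 and −0.69, and neither passed. Their adjusted p-values were 0.0869 and 0.0533.

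*Rpl5* and *Rpl11* bind 5S ribosomal RNA and, when not built into ribosomes, can bind *Mdm2*, the ubiquitin ligase of p53. *Rpl5* had 755, 785 and 555 CPM in KO and 1248, 1219 and 1011 in WT (log2 fold change −0.73, standard error 0.20, edgeR adjusted p = 0.0353). *Rpl11* had 368, 562 and 377 CPM in KO and 650, 560 and 556 in WT, and its −0.43 did not pass (edgeR adjusted p = 0.155). A share of 91.1% of the windows of *Rpl5* and 59.7% of those of *Rpl11* occur in other genes.

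Other large subunit genes fell too. *Rpl29* had 35.8, 39.6 and 25.1 CPM in KO and 65.9, 63.5 and 53.5 in WT, and passed in 5 of the 6 fits that left out 1 library (log2 fold change −0.86, standard error 0.19, edgeR adjusted p = 0.0171). *Rpl28*, *Rpl18* and *Rpl38* also fell, with log2 fold changes of −0.71, −0.70 and −0.65. The 4 X-linked genes on the list, *Rpl10*, *Rpl36a*, *Rpl39* and *Rps4x*, had values between −0.53 and −0.39, and none passed (10.6% of all genes fell). *Rpl3*, which lies near the catalytic centre, had 714, 929 and 659 CPM in KO and 1084, 1146 and 859 in WT, with an overlap, and its −0.42 did not pass.

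In the small subunit, *Rpsa* fell most. *Rpsa* (ENSMUSG00000032518, chr9:120127766-120132369), also known as the laminin receptor, had 1119, 1666 and 975 CPM in KO and 2848, 2854 and 2215 in WT (log2 fold change −1.07, standard error 0.26, edgeR adjusted p = 0.0245). It fell to 47.5% of WT. A similar fall was seen for *Rack1*, a scaffold protein of the small subunit that the name rule does not take and that the table lists as *Gnb2l1*. *Rack1* had 951, 1092 and 671 CPM in KO and 2009, 1829 and 1612 in WT (log2 fold change −1.01, standard error 0.23, edgeR adjusted p = 0.0206). *Fau*, whose product is cleaved into Rps30 and a ubiquitin-like protein, had 263, 390 and 177 CPM in KO and 447, 433 and 378 in WT, with an overlap, and a log2 fold change of −0.60 that did not pass (edgeR adjusted p = 0.142). *Rps27a*, made as a fusion to ubiquitin, had 376, 387 and 236 CPM in KO and 632, 614 and 566 in WT (log2 fold change −0.86, standard error 0.21, edgeR adjusted p = 0.0258).

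Genes at the mRNA exit and platform had similar values. *Rps3a1*, *Rps14*, *Rps26* and *Rps28* had log2 fold changes from −0.76 to −0.63, with every KO library below every WT library (21.6% of all genes). Of these genes, *Rps26* and *Rps28* passed (10.6% of all genes fell). *Rps26*, which contacts mRNA upstream of the start codon, had 555, 704 and 433 CPM in KO and 1022, 944 and 870 in WT (log2 fold change −0.75, standard error 0.21, edgeR adjusted p = 0.0393). Of 5 genes at the decoding centre and mRNA channel, where 0 or 1 call is about the share of all genes that fell (10.6%), *Rps2* passed (−0.72, edgeR adjusted p = 0.0343), while *Rps3* (−0.72), *Rps15* (−0.72), *Rps23* (−0.62) and *Rps9* (−0.41) did not. *Rps3* missed the threshold narrowly (edgeR adjusted p = 0.0521), and the libraries of *Rps9* overlapped. *Rps10*, *Rps20*, *Rps25* and *Rps15a* fell too, by 0.80, 0.78, 0.67 and 0.65 on the log2 scale.

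A few genes stood apart from the rest of the set. *Rps21* (ENSMUSG00000039001, chr2:180257377-180258445) had 144, 202 and 112 CPM in KO and 143, 123 and 131 in WT, so that KO2 was the highest and KO3 the lowest of the 6 libraries. Its log2 fold change was 0.20 (standard error 0.21, edgeR adjusted p = 0.511) and became −0.05 without KO2. *Rpl22*, whose protein is known to repress the mRNA of its paralogue *Rpl22l1*, had 236, 310 and 211 CPM in KO and 305, 283 and 243 in WT (log2 fold change −0.13, standard error 0.18, edgeR adjusted p = 0.620). *Rps7* and *Rps29* had −0.21 and −0.35, and *Rps19bp1*, which is no subunit, −0.15. In these 5 genes the libraries of the genotypes overlapped, and a smaller fall cannot be told from none.

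The 4 paralogues went different ways, both by level and relative to the gene they are named after. *Rps27l* (ENSMUSG00000036781, chr9:66946086-66949516), a paralogue of *Rps27* that p53 can induce, had 79.5, 67.7 and 56.5 CPM in KO and 121, 117 and 116 in WT. It fell to 57.6% of WT, with the smallest adjusted p-value of the 84 genes (log2 fold change −0.80, standard error 0.15, edgeR adjusted p = 0.00996), and none of its 100-base windows occurs in another gene. It passed in 5 of the 6 fits that left out 1 library, failing without WT1 (edgeR adjusted p = 0.0537, where the 15 alternatives ran from 0.000149 to that value). *Rps27* itself had 226, 251 and 145 CPM in KO and 341, 309 and 288 in WT, and its −0.59 did not pass (edgeR adjusted p = 0.0791). On the TPM scale *Rps27l* stood at 25.0%, 18.2% and 26.0% of *Rps27* in KO and 23.7%, 26.0% and 26.8% in WT, so that the ratio overlapped.

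*Rpl22l1* (ENSMUSG00000039221, chr3:28805436-28807424) had 10.8, 11.9 and 11.0 CPM in KO and 18.4, 17.2 and 17.5 in WT, with little spread within a genotype (log2 fold change −0.65, standard error 0.14, edgeR adjusted p = 0.0162). On the TPM scale it stood at 23.6%, 17.6% and 20.6% of *Rpl22* in KO and 33.5%, 37.9% and 37.6% in WT, and the genotypes did not overlap. *Rpl36al* (ENSMUSG00000049751, chr12:69182731-69184083) had 95.1, 93.8 and 63.1 CPM in KO and 88.6, 83.3 and 79.5 in WT, and its sign (log2 fold change 0.00, standard error 0.17, edgeR adjusted p = 0.993) turned with the settings. Its X-linked partner *Rpl36a* had 261, 314 and 196 CPM in KO and 404, 362 and 347 in WT. On the TPM scale *Rpl36al* therefore stood at 49.9%, 39.3% and 41.6% of *Rpl36a* in KO and 29.5%, 30.3% and 30.4% in WT, without overlap. This ratio is uncertain to the extent that reads are shared. Of the windows of *Rpl36a*, 83.6% occur in other genes, and 24.5% of the exonic length of *Rpl36al* overlaps with another gene.

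*Rpl7l1* (ENSMUSG00000063888, chr17:46773907-46782656), a relative of *Rpl7* that acts in ribosome assembly, was the only 1 of the 84 with every KO library above every WT library. It had 114, 130 and 105 CPM in KO and 87.7, 102 and 95.5 in WT, but the log2 fold change of 0.29 did not pass (standard error 0.13, edgeR adjusted p = 0.146). Its TPM were 5.86%, 5.45% and 6.53% of those of *Rpl7* in KO and 3.04%, 3.92% and 3.95% in WT, without overlap. The ratios are given as descriptions, without a test.

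**Figure D3:**
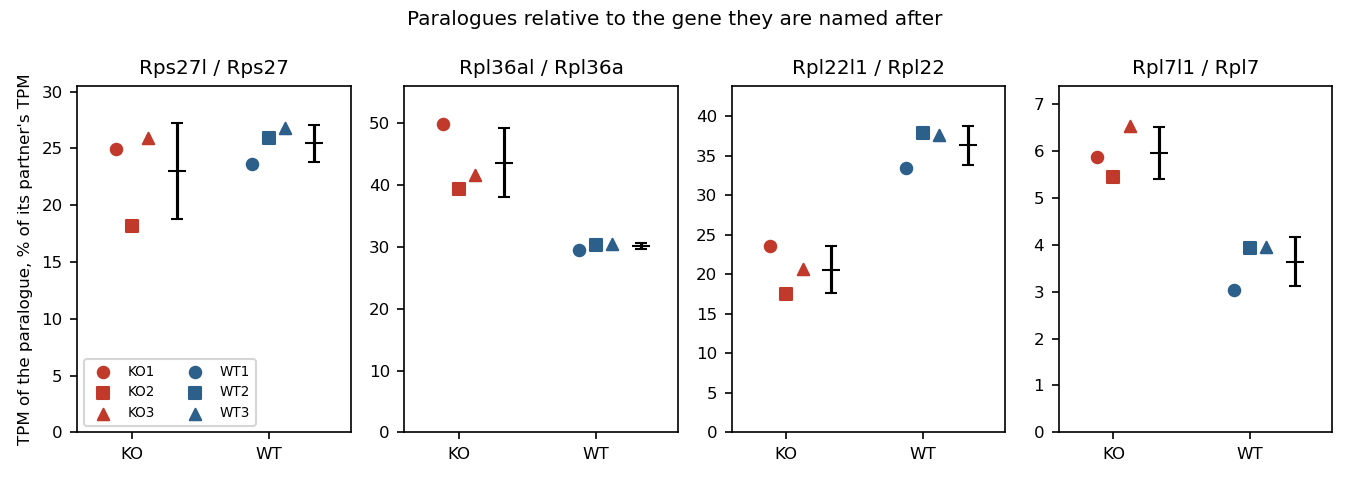
TPM of each paralogue as a percentage of the TPM of its partner gene, with 1 point per library and the mean ± SD (n = 3) as bars, each panel on its own scale from 0. KO and WT overlap for *Rps27l*, KO lies above WT for *Rpl36al* and *Rpl7l1*, and KO lies below WT for *Rpl22l1*.

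Copies with nearly the same sequence could blur these values. *Rps3a2* and *Rps3a3*, copies of *Rps3a1*, fell by 0.85 and 0.76 on the log2 scale (edgeR adjusted p = 0.0242 and 0.0359), where *Rps3a1* had −0.63 and did not pass. By counts *Rps3a2* stood at 2.31% to 3.44% of *Rps3a1*, but by TPM at 69.6% to 84.9%, so the ratio of this copy differed between counts and TPM. *Rps3a3* stood at 62.9% to 74.7% of *Rps3a1* by counts and 70.0% to 76.1% by TPM. Over the 84 genes the log2 fold changes from counts and from TPM lay close together (Pearson's r = 0.96, Spearman's rho = 0.92 across genes, from the same libraries and reads). The 28 genes with at least 50% of windows found elsewhere had a median of −0.62, and the other 56 had −0.64. With limma on log2(TPM + 1) 38 of the 84 fell and 0 rose, where 11.9% of all genes fell.

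The 8 genes under 100 counts in a library were *Rpl10l*, *Rpl39l*, *Rps4l*, *Rpl24*, *Rpl3l*, *Rps12l1*, *Rps12l2* and *Rps27rt*. *Rpl10l*, *Rpl39l* and *Rps4l* had 0 counts in all 6 libraries, and at up to 3 counts in each *Rps12l1* and *Rps12l2* were not above the limit that a count of 0 allows. *Rpl24* had 13 to 63 counts per library, although StringTie gave it 323 to 393 TPM in KO and 500 to 641 in WT. *Rpl3l*, the muscle-specific paralogue of *Rpl3*, had 9, 4 and 16 counts in KO and 55, 18 and 67 in WT (log2 fold change −2.42, edgeR adjusted p = 0.0310). At these counts it stood at no more than 0.147% of *Rpl3* by TPM.

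The size of the fall varied with the place of the gene in the genome. For each gene the median log2 fold change of the other tested genes in the same 10 Mb was computed, on GRCm38. Across 83 genes, which share the libraries, Pearson's r between the log2 fold change and this median was 0.56 (Spearman's rho = 0.51). Across all other tested genes r was 0.21 with their own region. There the regional median included the gene itself, and log2 fold changes were spread more widely (interquartile range of all genes −0.37 to 0.48). The values of r are therefore not directly comparable. Of 8 genes in regions with a median below −0.15, 5 passed the threshold and the median was −0.71, where 21.5% of the other genes of such regions fell. In regions between −0.15 and 0.15, 16 of 62 passed, with a median of −0.62 (9.91% of the others fell), and above 0.15, 1 of 13 passed, with −0.50 (5.48% of the others). On chromosome 9, where the other 832 genes had a median of −0.18 and 16.6% of them fell, 6 of 7 ribosomal protein genes passed (*Rpsa*, *Rplp1*, *Rpl4*, *Rpl29*, *Rps27l* and *Rps25*, with *Rpl14* at −0.69). On chromosome 12, where the other 480 genes had a median of 0.39 and 3.96% of them fell, none of 3 passed (*Rps29*, *Rps7* and *Rpl36al*, median −0.21). *Rps21* lies in a region with a median of 0.40. With the regional median subtracted, the median of the genes was −0.65. What the regions share was not tested.

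**Figure D4:**
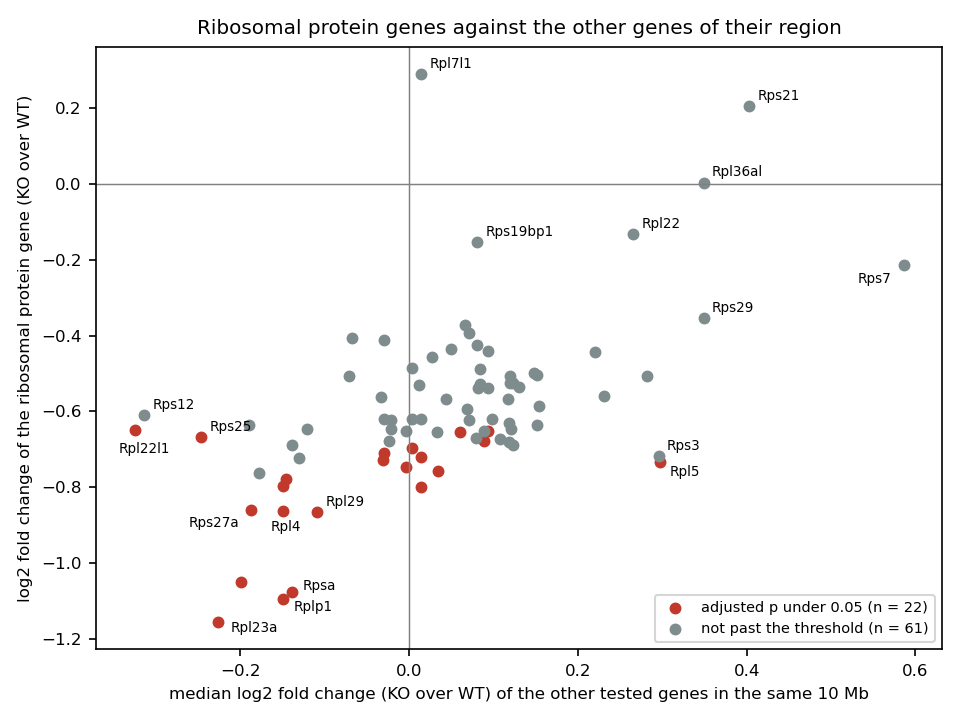
Each point is 1 ribosomal protein gene, with its log2 fold change on the vertical axis and the median log2 fold change of the other tested genes of its 10 Mb on the horizontal axis, red where the adjusted p was under 0.05. Points run from *Rpl23a* and *Rplp1* at the lower left to *Rps21* and *Rpl36al* at the upper right (r = 0.56, n = 83), and nearly all lie below 0 whatever their region.

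Ribosomal protein mRNAs are short and abundant, and the other short and abundant mRNAs also had lower medians. Of the 84, 75 had a mean of at least 7 on the log2 CPM scale and 49 had a transcript under 1000 bases. Among the other genes at or above that level, the median log2 fold change was −0.15, and it was −0.25 for the 60 of them with a transcript under 1000 bases. Below 2 on that scale the median was 0.23. When the trend of log2 fold change with length and level, fitted on the other genes, was subtracted, the median of the 84 genes moved from −0.62 to −0.23, and with the trend fitted on all genes to −0.20. Within the 84 genes the log2 fold change was not graded by length (Pearson's r = 0.05) and little by level (r = −0.20). RNA quality values were not among the data used, and their part was not tested.

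Other genes of ribosome production and translation were compared by lists, none of which holds a gene of the ribosomal protein set. Mitochondrial ribosomal protein genes, which serve translation inside mitochondria, had a median log2 fold change of −0.31 over 78 tested, with 14 that fell and 1 that rose, where 10.6% of all genes fell and 12.1% rose. *Mrpl38* fell most, from 113, 102 and 107 CPM in WT to 53.9, 49.8 and 33.5 in KO (log2 fold change −1.23, edgeR adjusted p = 0.00538). The count that fell was 3 without WT1, 6 without WT3, 7 without KO3 and 22 with no filter on low counts, and the median was −0.16 without KO3 and −0.19 with total counts scaling. Of 41 translation factors 7 fell and 1 rose, with a median of −0.31, and the count that fell was 2 without WT1, 3 without WT3 and 11 in DESeq2. Its median was −0.19 both without KO3 and with total counts scaling. *Eef1g*, a subunit of the elongation factor that recharges eEF1A and itself a TOP mRNA, had 477, 442 and 336 CPM in KO and 956, 876 and 841 in WT (log2 fold change −1.09, edgeR adjusted p = 0.00737). *Pabpc4* (−0.79), *Eif3g* (−0.72), *Eif3f* (−0.68) and *Eif4a2* (−0.67) fell as well, and *Eif5* rose (0.74).

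Genes that build ribosomes had no common direction. Of 70 ribosome biogenesis genes 11 fell and 4 rose, where 10.6% of all genes fell and 12.1% rose, and the median was 0.01. *Imp3*, a component of the small subunit processome, fell (−1.36), while its partner *Imp4* (0.68) and *Heatr3*, which helps to carry *Rpl5* into the nucleus (1.39), rose. The count that fell was 4 with the replicate block, 3 with total counts scaling, 1 without WT1, 2 without WT2 or WT3, 5 without KO2 and 4 without KO3. Of 15 genes for RNA polymerase I and rDNA transcription 6 rose and 1 fell, with a median of 0.19. *Ubtf*, the architectural factor of active rDNA, had 150, 166 and 161 CPM in KO and 69.8, 93.7 and 80.6 in WT (log2 fold change 0.97, standard error 0.14, edgeR adjusted p = 0.00502). *Polr1b* (1.0), *Taf1a* (0.95) and *Taf1b* (0.78) rose too, and *Rrn3*, the initiation factor that links the polymerase to growth signals, fell (−0.42). The count that rose was 2 without WT1 and 3 without WT3, with 0 that fell in either, and the median was 0.31 with total counts scaling.

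Of 25 genes of mTORC1 and TOP control 3 fell and 1 rose, where 10.6% and 12.1% of all genes did. The count that fell was 4 without KO1 and 1 when any of the other 5 libraries was left out. *Eif4ebp1*, an inhibitor of cap-dependent initiation, had 204, 177 and 157 CPM in KO and 350, 351 and 309 in WT (log2 fold change −0.91, edgeR adjusted p = 0.00692). *Larp1b* (−0.71) and *Larp4b* (−0.47) fell and *Max* (1.16), the partner of *Myc*, rose. *Mtor*, *Rptor* and *Larp1* did not pass.

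Many targets of p53, the transcription factor of the DNA damage and stress response, were lower in KO. Of 23 tested, 13 fell and 1 rose, with a median log2 fold change of −0.82, where 10.6% of all genes fell. *Gdf15*, a secreted stress signal, had 11.1, 11.2 and 5.25 CPM in KO and 42.1, 46.0 and 40.9 in WT (log2 fold change −2.23, standard error 0.28, edgeR adjusted p = 0.00298). *Ccng1* had 232, 281 and 209 CPM in KO and 929, 554 and 796 in WT (log2 fold change −1.66, standard error 0.23, edgeR adjusted p = 0.00406). *Bbc3* (−1.46), *Aen* (−1.32), *Zmat3* (−1.28), *Ei24* (−1.19) and *Mdm2* (−0.78) fell as well, whereas *Cdkn1a* (−0.74) did not pass and *Perp* rose, from 0.202, 0.122 and 0.0539 CPM in WT to 6.27, 9.23 and 1.49 in KO. Over the 3 KO libraries the list was level, with median differences from WT of −0.71, −0.91 and −0.82, where the ribosomal protein genes had −0.57, −0.30 and −1.02. The count that fell was 8 without WT1 and between 11 and 16 without any other library. Of 22 cell cycle genes 6 rose and 0 fell (12.1% of all genes rose), with a median of 0.48 that was 0.28 without KO2, and the count that rose was 3 without WT1, 3 without WT3 and 13 without KO1. Of 24 muscle differentiation genes 4 fell (*Mef2c*, *Tcap*, *Myl1* and *Myf5*) and 2 rose (*Myod1* and *Cdh15*), with a median of −0.40, where 10.6% of all genes fell and 12.1% rose. The median of this list was −1.01 without KO1, −0.20 without KO2 and −0.19 without KO3, and the count that fell was 15 without KO1, 2 without KO3, 2 without WT1 and 1 without WT3.

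**Figure D5:**
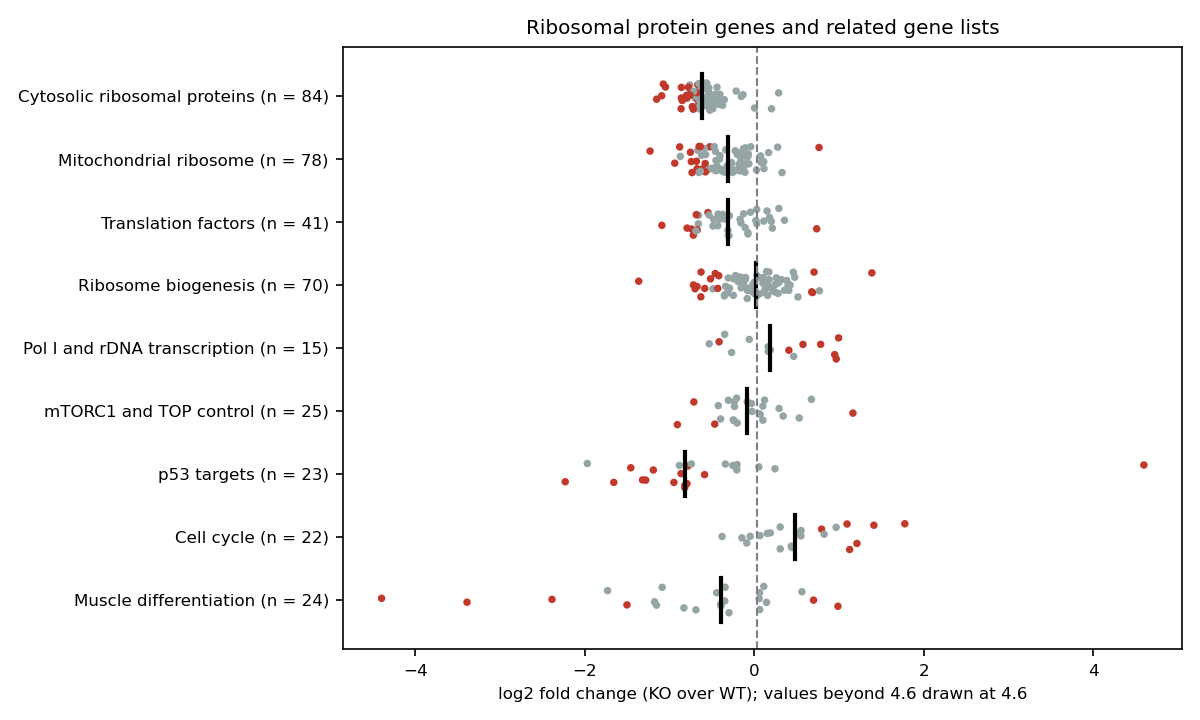
Log2 fold change of every tested gene in the ribosomal protein set and 8 lists, red where the adjusted p was under 0.05, with a black bar at each median and a dashed line at the median of all genes (0.03). The ribosomal proteins form a narrow group around −0.62, the p53 targets a wide one around −0.82, and biogenesis genes are centred near 0.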

How the data were processed

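RNA from 3 KO and 3 WT libraries of differentiating C2C12 cells was analysed. The authors trimmed the reads, removed ribosomal RNA reads in silico with SortMeRNA, aligned them with STAR and deposited raw counts per gene, without normalization. The submitters' processing notes name featureCounts, and versions and the use of strand are not given in the sources used here. The authors also deposited StringTie TPM per library, which were summed per gene identifier. The labels name the build mm9 and the methods GRCm39, whereas 91.8% of the deposited gene positions equal those of GENCODE M21 on GRCm38, so positions are given on GRCm38.

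Counts were scaled with TMM, filtered with filterByExpr and tested with edgeR 4.0.16 (two-sided quasi-likelihood test, genotype only, Benjamini-Hochberg adjustment over 14828 genes, threshold 0.05) in R 4.3.3. TPM were tested with limma 3.58.1 on log2(TPM + 1) for genes with at least 1 TPM in 3 libraries, a scale that understates the change of low genes. Library differences used log2(CPM + 0.5). DESeq2 1.42.0, other scalings, no low-count filter, a pseudocount of 0.1, the replicate number as a block, at least 10 counts per library for the ribosomal protein genes, each library left out, and removal of a regional median (10 Mb, at least 10 other genes) or of a loess trend on transcript length and level were alternatives. DESeq2 without WT1, the set without paralogues, copies and *Rps19bp1*, and the trend fitted on other genes were added after seeing the data. Fits were tested on simulated data.

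The genes named were those past the threshold, the 3 with the largest rise and fall, the most and least abundant of each subunit, the paralogues with their partners, those of fixed role lists, and up to 6 called genes of each other list. Some genes that meet this rule are counted in the totals but not reported here by name. The ribosomal protein genes and all lists were chosen with earlier results of these data known. Older symbols of 5 list genes were matched through RefSeq synonyms. All 6 columns of counts were used. Depth was similar in all libraries, and the chi-square per degree of freedom between libraries of 1 genotype was at least 51.8, so no library repeated another. Splicing, the eCLIP and the single-cell data were not analysed here.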

Additional observations from a re-analysis of the deposited data

How the results depend on the processing

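The number of ribosomal protein genes called lower (23 of 84 in edgeR) was 53 in DESeq2, 12 in DESeq2 without WT1, 39 and 38 in limma on log2(TPM + 0.1) and log2(TPM + 1), 54 with no filter on low counts and 10 with total counts scaling, and between 0 and 54 when 1 library was left out. The number over all genes (3361) lay between 933 and 4712 when 1 library was left out. The median log2 fold change of the 84 genes (−0.62) kept its direction in all settings, and moved by more than the spread between libraries (0.27) in the trend removals alone, to −0.20 with the trend of all genes and −0.23 with that of the other genes. Total counts scaling moved the median of all genes from 0.03 to 0.15, and relative to the median of all genes the 84 had −0.66 in both scalings. The difference between the subunit medians (0.08) was 0.020 with the regional median removed, 0.060 with the trend of the other genes removed, and 0.067 to 0.12 when 1 library was left out. The cause of these shifts was not tested.

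The tally covers 56 named genes and 14 of the alternatives, leaving aside DESeq2 without WT1 and the removals of a regional median or trend. In it 609 values kept direction and call, 62 newly passed the threshold, 99 no longer passed it and 12 changed sign. The sign changes were in *Rpl36al* (0.00 as reported; −0.021 in DESeq2, −0.0024 with TMM without the ribosomal protein genes, −0.030 in both limma fits, −0.021 with no filter, −0.020 with the replicate block, −0.10 to 0.18 with 1 library left out), *Rps19bp1* (−0.31 to 0.0095 with 1 library left out) and *Rps21* (−0.050 to 0.39). None of these genes passed in edgeR on all libraries. With the trend of all genes removed, which is outside the tally, other named genes were positive too, among them *Rpl39* (0.15), *Rpl36a* (0.087) and *Rpl22* (0.067).

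The labels give both genotypes the numbers 1 to 3, but same-numbered libraries did not deviate together (correlations of 0.14, −0.12 and 0.00), so the numbers were not taken as pairs. With the replicate block 25 of the 84 genes were called lower, with a median of −0.65 and a subunit difference of 0.07, and 2520 of all genes differed. Not every library correlated best with its own number.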

Other observations

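Pseudogenes of ribosomal proteins, marked -ps and left out of the gene set, showed the same direction in the count table. The table lists 260 such entries (179 with at least 1 count), and 68 were abundant enough to test. Of these, 8 were called lower in KO and 0 higher (edgeR, where 10.6% of all tested genes were lower), and 63 had a negative log2 fold change. Their median was −0.67, beside −0.62 for the 84 genes. Together they took 0.0399%, 0.0559% and 0.0351% of the counts in KO and 0.0672%, 0.0682% and 0.0546% in WT, with KO2 above WT3. *Rps2-ps10*, chosen after its values were seen, had 7.58, 14.2 and 7.86 CPM in KO and 25.0, 25.6 and 19.6 in WT (log2 fold change −1.24, edgeR adjusted p = 0.0167). Reads of the parent genes can be counted on these entries, and transcription of the pseudogenes themselves cannot be told apart from that.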
